A study of Brachypodium distachyon with 6 samples.

Results

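The transcripts described here held many sequencing reads in ammonium-fed roots of the grass Brachypodium distachyon and at least 2-fold fewer in nitrate-fed roots. They were chosen by their measured levels in these same libraries, as CPM, the counts of a feature per 1000000 counts of its library. A feature with a BRADI locus identifier was a member where its mean over the ammonium libraries was 120 CPM or more, its mean over the nitrate libraries was 2 CPM or more, and the ratio of the means was 2 or more. The rule found 163 members among 29627 features. Since it used the difference between the nitrogen sources, that difference is given below as a description of the members and not as a finding about them.

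Ammonium enters root cells through ammonium transporters and is joined to glutamate by glutamine synthetase, which ties nitrogen uptake to the supply of carbon skeletons. Nitrate must first be reduced to nitrite and then to ammonium, and nitrate itself also acts as a signal for gene expression. Roots that live on ammonium alone release protons and acidify their medium, and many plants grow poorly on it. None of the 163 identifiers could be paired with a gene name or product in the reference used (0 of 163), so the members are given by locus identifier and no role is assigned to any of them. No sequence of a member is shown for the same reason.

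Messenger RNA was sequenced from whole roots of the inbred line Bd21. The ammonium group (3 libraries) received 1.25 mM ammonium sulfate and the nitrate group (3 libraries) received 1.25 mM calcium nitrate, which is 2.5 mM nitrogen in both. Both groups were moved to hydroponic tanks of 4.5 L as 7-day-old seedlings and kept there for 19 days, and every library came from a pool of 12 seedlings. The nitrogen salts also differ in sulfate and calcium. Effects of the nitrogen form and of any difference in these ions between the solutions cannot be told apart. No library came from roots without nitrogen, so a rise under ammonium and a fall under nitrate cannot be told apart either. With no gene names, the label whole root could not be checked against markers of root or shoot tissue.

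Library totals were 27525771 to 29547877 counts under ammonium and 22470936 to 29115598 under nitrate. Ammonium replicate 3 stood apart from the other ammonium pools. It lay at 49.1 on the first principal component of all tested features, where ammonium replicates 1 and 2 lay at 72.8 and 68.1 and the nitrate libraries at -64.7 to -60.7. On the second component ammonium replicate 3 and nitrate replicate 3 lay together at -29.7 and -24.3, away from the other 4 libraries at 10.9 to 17.4. The members were therefore also chosen without this library, which gave 180 features, 157 of them among the 163. CPM counts reads and not reads per length, so a level compares libraries for 1 transcript, while an order among transcripts also carries their length.

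Of 1671 BRADI features at 120 CPM or more under ammonium, 166 had a ratio of 2 or more, and the minimum under nitrate removed 3 of these. The members were thus 9.75% of the abundant features. Their ammonium means ran from 120.2 to 12426 CPM with a median of 289 CPM, and their nitrate means from 6.18 to 3616 CPM with a median of 73.7 CPM. The ratios ran from 2.00 to 241 with a median of 3.54 and an interquartile range of 2.51 to 5.85. No member was rare in any library: the smallest count of a member was 1445 in an ammonium library and 124 in a nitrate library.

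All 163 members passed the abundance filter and all were called higher under ammonium by the quasi-likelihood test of edgeR (adjusted p under 0.05), where 19.2% of 23694 tested features were called higher. The lowest ammonium library lay above the highest nitrate library for 162 members, against 27.6% of the tested features. The rule used this contrast, so nothing is read from either count. Their median log2 fold change was 1.81, beside 0.00 over all tested features. The member whose groups overlapped was BRADI_5g20557v3, with 236, 219.6 and 134 CPM in ammonium replicates 1 to 3 against 71.3, 136 and 81.6 CPM in nitrate replicates 1 to 3. Its ammonium replicate 3 lay just under nitrate replicate 2.

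**Figure D1:**
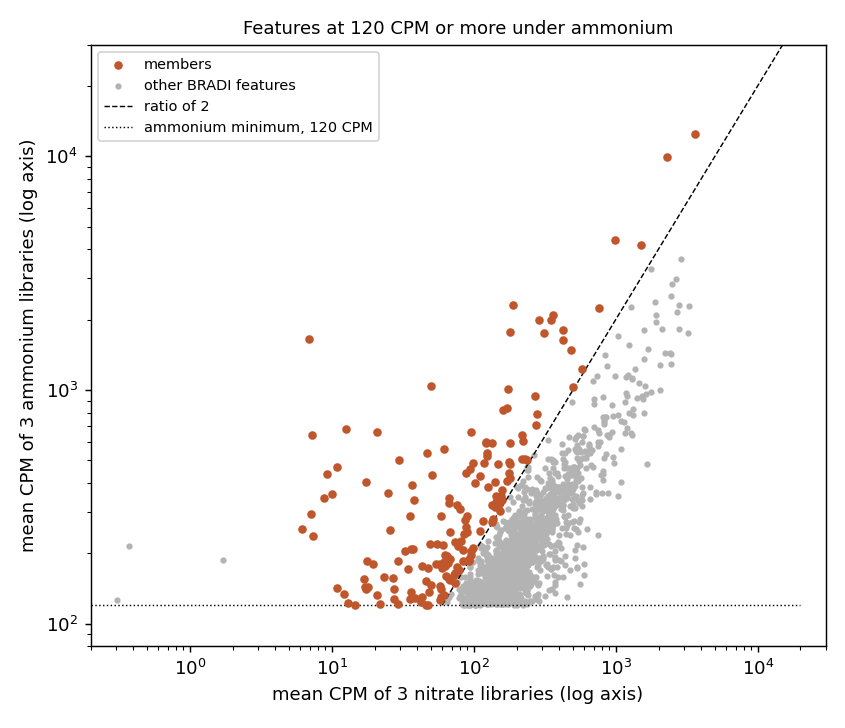
Mean CPM of the 3 ammonium libraries (vertical, log axis) against the mean CPM of the 3 nitrate libraries (horizontal, log axis) for the 1671 BRADI features at 120 CPM or more under ammonium. Each point is a feature, the 163 members are coloured, the dashed line is a ratio of 2 and the dotted line the ammonium minimum. Of the members, 66 have ratios under 3 and lie just above the dashed line, and those farthest left have nitrate means down to 6.18 CPM.

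Features close to the thresholds differed little across them. The members with the smallest ratios were BRADI_4g16430v3 (304 CPM under ammonium, 152 CPM under nitrate, ratio 2.00), BRADI_3g46530v3 (186 and 92.3 CPM, ratio 2.02) and BRADI_4g33878v3 (149 and 73.9 CPM, ratio 2.02). Just below the ratio of 2 lay BRADI_1g52210v3 at 1.98, BRADI_5g20320v3 at 1.98 and BRADI_2g38340v3 at 1.97, none of them members. At the ammonium minimum, the lowest members were BRADI_4g19930v3, BRADI_3g47745v3 and BRADI_1g17440v3 with means of 120.2, 120.3 and 121 CPM under ammonium. The nearest features below it were BRADI_2g56360v3, BRADI_5g17260v3 and BRADI_2g45170v3 with 115, 115 and 113 CPM. The members with the lowest nitrate means, BRADI_1g08421v3 at 6.18 CPM and BRADI_2g57370v3 at 6.88 CPM, stood well above the nitrate minimum. The 3 features that this minimum removed, BRADI_3g16650v3, BRADI_2g45143v3 and BRADI_3g31787v3, had nitrate means of 1.71, 0.373 and 0.306 CPM.

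Together the members held 10.5%, 10.2% and 9.31% of all counts in ammonium replicates 1 to 3, against 2.63%, 2.66% and 2.28% in nitrate replicates 1 to 3. The mean share was 10.01% ± 0.626 in ammonium roots against 2.52% ± 0.209 in nitrate roots (SD, n = 3 for either), a difference of 7.49 percentage points. The other 1508 abundant features held 40.99% ± 0.561 of all counts in ammonium libraries and 45.4% ± 0.166 in nitrate libraries (SD, n = 3 each). Shares of a library add up to a fixed total, so a larger share for the members leaves a smaller one for other features. In whole roots a change in the number of cells of a type and a change in RNA per cell cannot be told apart.

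A small number of members carried much of this difference. The 4 members with the highest ammonium means held 3.02%, 3.03% and 3.21% of all counts in ammonium replicates 1 to 3, against 0.879%, 0.932% and 0.707% in nitrate replicates 1 to 3. They accounted for 30.0% of the difference in share and the 12 highest for 47.5%, while the other 151 members accounted for 52.5%. By size of ratio, the 46 members with ratios of 3 to 5 gave 45.0% of the difference and the 66 members under 3 gave 20.6%. The 11 members with ratios of 30 or more gave 7.91%. Of the 100 features with the highest ammonium mean, 27 were members, and of the 100 with the highest nitrate mean, 5 were.

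**Figure D2:**
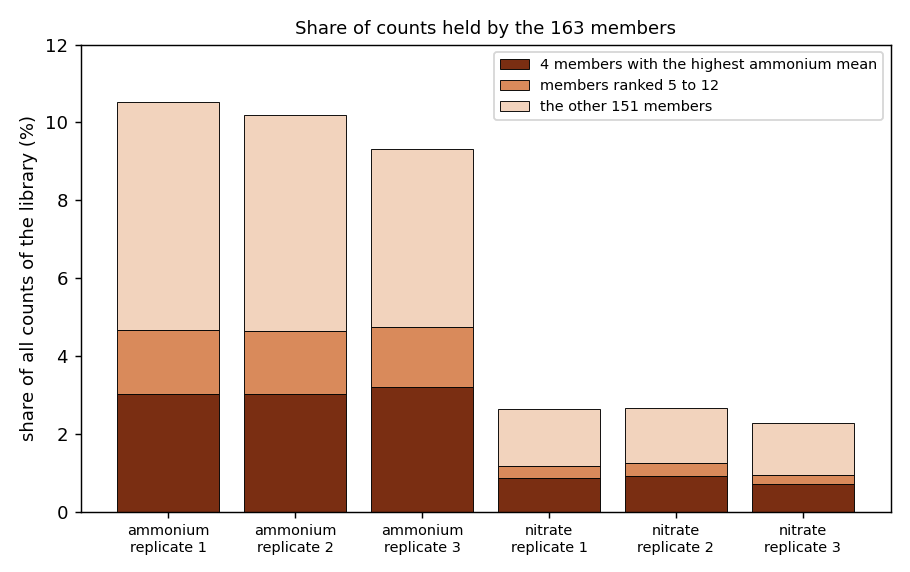
Share of all counts of each library (vertical, percent) held by the 163 members, with ammonium libraries left and nitrate libraries right. Bars are single libraries and are stacked into the 4 members with the highest ammonium mean, the members ranked 5 to 12 and the other 151. The totals run from 9.31% to 10.5% under ammonium and from 2.28% to 2.66% under nitrate, and the upper segment is smallest, among the ammonium bars, in replicate 3.

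The most abundant member was BRADI_4g43610v3. It had 11979.7, 11589 and 13709 CPM in ammonium replicates 1 to 3, against 3696 CPM, 3864 CPM and 3288 CPM in nitrate replicates 1 to 3. Its replicate 3 was the highest ammonium library and also the lowest nitrate library, and its log2 fold change was 1.76 (SE 0.13). BRADI_3g10520v3 had 9786, 9944 and 9919.6 CPM under ammonium, against 2384, 2731 and 1752 CPM under nitrate. Its ammonium libraries were the closest of any member, with a coefficient of variation (CV, the SD as a percentage of the mean) of 0.860% beside 21.7% under nitrate. BRADI_1g64487v3 followed with 4329, 4359 and 4502 CPM under ammonium, against 1077, 1175 and 722 CPM under nitrate. BRADI_2g28254v3 had 4060.3, 4437 and 3971 CPM under ammonium, against 1632, 1546 and 1304 CPM under nitrate. In each of these 4 the ammonium libraries lay above all nitrate libraries, and nitrate replicate 3 was the lowest.

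Of the next 8 members by ammonium mean, 2 were at least 1.25-fold lower in ammonium replicate 3 than in the other ammonium pools. BRADI_4g31960v3 (2082 ± 118 CPM under ammonium, 362 ± 49.5 CPM under nitrate), BRADI_3g53290v3 (1999 ± 104 and 289 ± 47.2 CPM) and BRADI_1g42270v3 (1991 ± 195 and 348 ± 37.8 CPM) had ratios of 5.74, 6.93 and 5.71 (SD, n = 3 each). BRADI_3g57750v3 had 1798 ± 81.2 CPM under ammonium and 427 ± 41.5 CPM under nitrate, and BRADI_5g25610v3 1758 ± 74.3 and 310.4 ± 30.8 CPM (SD, n = 3 each). BRADI_3g11430v3 had 1770.4 ± 198 CPM under ammonium and 179.7 ± 42.0 CPM under nitrate, a ratio of 9.85 (SD, n = 3 each). In these 6 the ammonium CV was 4.22% to 11.2%. BRADI_1g51540v3 differed from them, with 2911, 2529 and 1512 CPM in ammonium replicates 1 to 3, against 199.7, 194 and 171 CPM in nitrate replicates 1 to 3. Its ratio was 12.3, and 14.4 without ammonium replicate 3. BRADI_1g12360v3 was also lower in ammonium replicate 3, with 2354, 2531 and 1850.2 CPM under ammonium, against 787, 902 and 611 CPM under nitrate. Its ammonium CV was 15.7%, beside 31.2% for BRADI_1g51540v3.

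All 12 of the highest members were at their lowest nitrate level in nitrate replicate 3. Of the 12, 8 were higher in ammonium replicate 3 than in the mean of ammonium replicates 1 and 2. The 12 together held 4.66%, 4.63% and 4.75% of the counts in ammonium replicates 1 to 3, against 1.18%, 1.25% and 0.948% in nitrate replicates 1 to 3. The other 151 members together held 5.86%, 5.57% and 4.56% in the ammonium libraries, against 1.44%, 1.41% and 1.33% in the nitrate libraries. Read as sums, the shortfall of ammonium replicate 3 in the members' total share thus lay in these 151. Within the 12, the falls of BRADI_1g51540v3 and BRADI_1g12360v3 were offset by rises of others. The members ranked 5 to 12 held 1.65%, 1.60% and 1.54% of the counts in ammonium replicates 1 to 3.

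**Figure D3:**
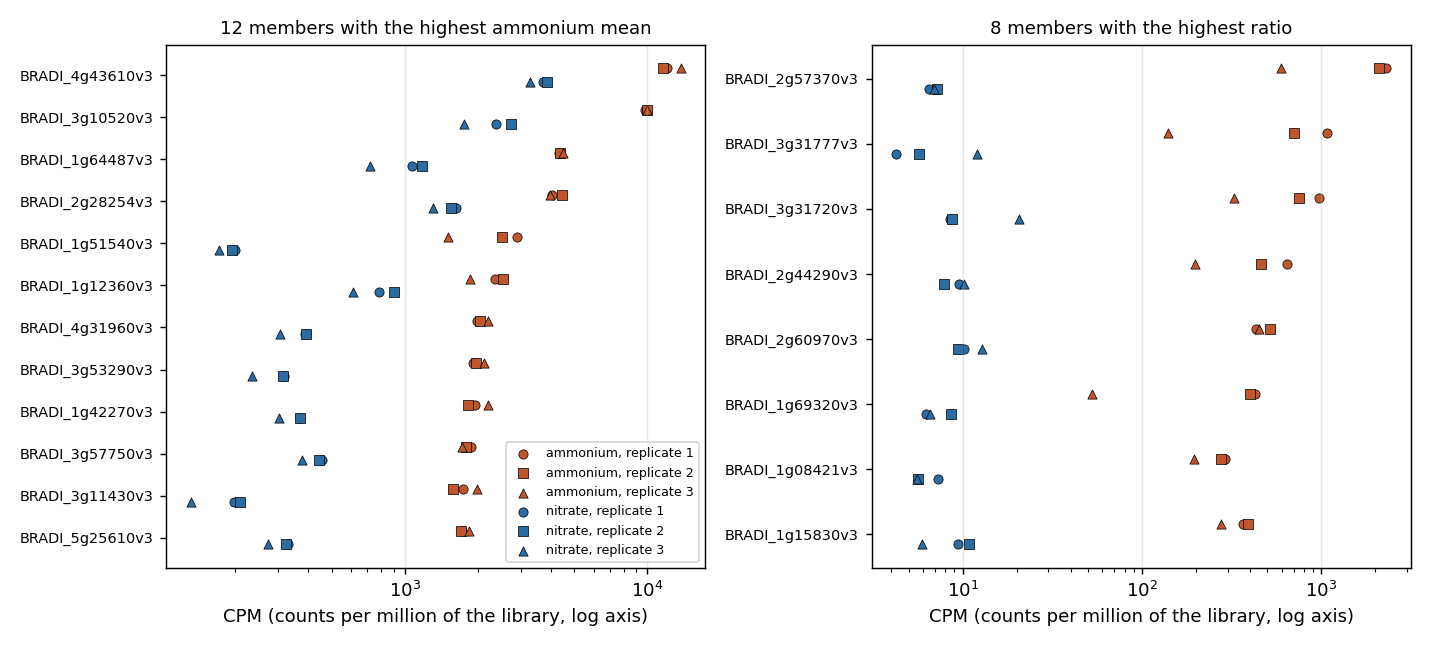
CPM in each library (horizontal, log axes) of the 12 members with the highest ammonium mean (left) and the 8 members with the highest ratio (right). Each symbol is a library, with ammonium above nitrate in each row and symbol shapes for replicates 1 to 3. At left the ammonium symbols mostly lie together, and at right ammonium replicate 3 (triangle) lies below replicates 1 and 2 in 7 of 8 rows, the exception being BRADI_2g60970v3.

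The members with the highest ratios were low under nitrate and varied between the ammonium pools. BRADI_2g57370v3 had the highest ratio, 241, with 2293, 2086 and 592 CPM in ammonium replicates 1 to 3, against 6.53, 7.16 and 6.94 CPM in nitrate replicates 1 to 3. Without ammonium replicate 3 its ratio was 318. Its nitrate libraries differed little (CV 4.68%), while its ammonium libraries had a CV of 56.0%. BRADI_3g31777v3 had 1079, 704 and 140.3 CPM under ammonium, against 4.26, 5.71 and 11.97 CPM under nitrate, a ratio of 87.6. BRADI_3g31720v3 had 971, 751 and 325 CPM under ammonium, against 8.55, 8.68 and 20.7 CPM under nitrate, a ratio of 54.0. In both, replicate 3 was the lowest ammonium library and the highest nitrate library. BRADI_2g44290v3 had 647, 462 and 198 CPM under ammonium, against 9.51, 7.88 and 10.2 CPM under nitrate.

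BRADI_1g69320v3 showed the widest gap of ammonium replicate 3 from the other pools, with 428, 399.8 and 52.5 CPM under ammonium, against 6.29, 8.64 and 6.54 CPM under nitrate. Its ratio was 41.0, and 57.8 without ammonium replicate 3. The remaining 3 of the 8 were steadier. BRADI_2g60970v3 had 434, 519 and 452 CPM under ammonium, against 10.2, 9.41 and 12.9 CPM under nitrate. BRADI_1g08421v3 had 290.3, 274 and 195 CPM under ammonium, against 7.32, 5.67 and 5.56 CPM under nitrate. BRADI_1g15830v3 had 366, 388 and 276 CPM under ammonium, against 9.45, 10.9 and 5.92 CPM under nitrate. For all 8 the ammonium libraries lay above every nitrate library, and the SE of the log2 fold change ran from 0.14 (BRADI_2g60970v3) to 0.78 (BRADI_3g31777v3). The fold of the variable members is therefore known less precisely than that of the abundant ones, whose SE was 0.11 to 0.24 in the 12 highest.

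Most members lay well below these levels. By ammonium mean, 70 members lay between 120 and 240 CPM with a median ratio of 3.05, and 46 lay between 240 and 480 CPM with a median ratio of 3.43. A further 28 lay between 480 and 960 CPM and 19 above that, with median ratios of 4.27 and 4.43. Under nitrate, 52 members kept a mean of 120 CPM or more, so that they met the same minimum there, and 21 had a mean under 20 CPM.

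The spread between pools of 1 treatment was not used directly by the rule, which took means only. A single high or low pool moves a mean, however, so the spread is not independent of the choice. The median CV of a member was 16.4% under ammonium and 12.0% under nitrate. For the other 1508 abundant features it was 5.16% under ammonium and 7.71% under nitrate. These features met the same ammonium minimum but were not matched to the members in their nitrate level. The CV was larger under ammonium than under nitrate for 93 of 163 members (57.1%) and for 37.9% of the other abundant features. This was not particular to the members. Of the 177 features chosen by the mirrored rule, with a nitrate mean of 120 CPM or more, an ammonium mean of 2 CPM or more and the nitrate mean at least 2-fold above the ammonium mean, 113 (63.8%) had the larger CV under ammonium, and their median CVs were 14.5% under ammonium and 10.2% under nitrate. Among the members, 17 had an ammonium CV under 5% and 16 had one of 40% or more. The 2 steadiest were BRADI_3g10520v3, given above, and BRADI_5g07720v3 with an ammonium CV of 1.16%. BRADI_5g07720v3 had 423, 433 and 427 CPM under ammonium, against 132, 115.5 and 84.8 CPM under nitrate. The 2 most variable were BRADI_3g31777v3 and BRADI_1g69320v3, with ammonium CVs of 73.7% and 71.3%. The members share their libraries and are not independent, so these values carry no test.

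Among the members, ammonium replicate 3 lay further from its group than any other library did. Set against the mean of ammonium replicates 1 and 2, its median over the members was -0.33 on the log2 scale (interquartile range -0.64 to 0.10), and 82 of 163 members (50.3%) were at least 1.25-fold lower in it. Among the other abundant features this median was 0.00, and 83 of 1508 (5.50%) were at least 1.25-fold lower. All but 3 of those features had a ratio under 2. The 177 features of the mirrored rule were shifted the other way, with a median of 0.23. Of them, 59 (33.3%) were at least 1.25-fold higher in ammonium replicate 3 and 15 at least 1.25-fold lower. The count of members at least 1.25-fold lower was 9 for ammonium replicate 1 and 3 for ammonium replicate 2, each set against the other ammonium pools. In the nitrate group it was 13, 14 and 36 for replicates 1 to 3. The membership rule took the ammonium mean, replicate 3 included, and so bears on these counts. Of the 180 features chosen without that library, 102 (56.7%) were at least 1.25-fold lower in it, against 86 of 1491 (5.77%) of the other features at the same ammonium minimum. That choice in turn favours features high in ammonium replicates 1 and 2. Of the members, 108 (66.3%) had their lowest ammonium level in replicate 3 and 88 (54.0%) their lowest nitrate level in replicate 3. Nitrate replicate 3 had the smallest total of all libraries, and the part of depth in this was not tested.

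**Figure D4:**
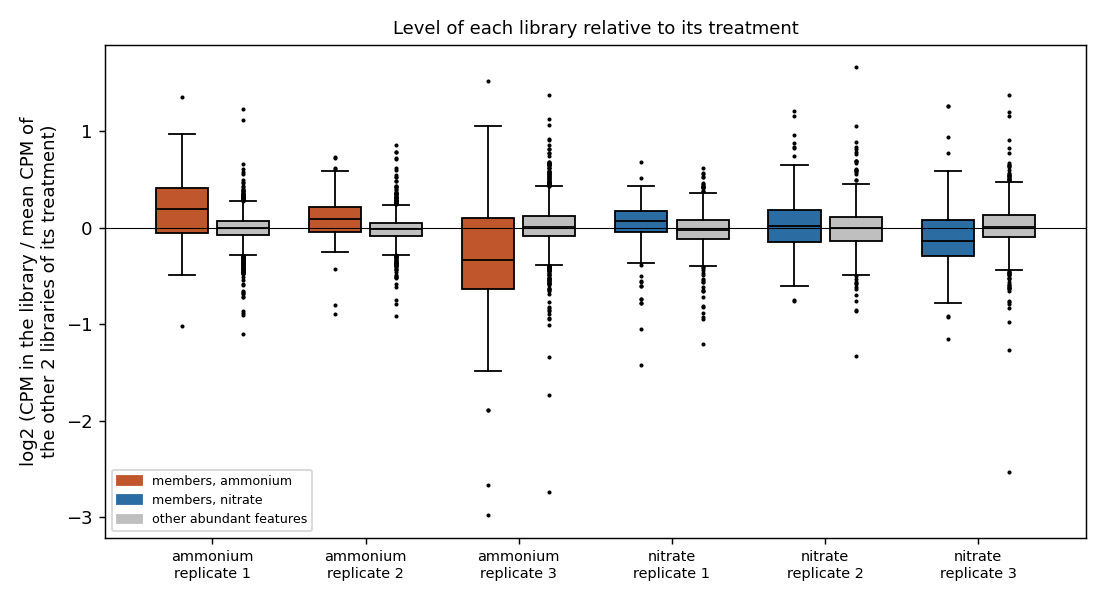
Level of each library relative to the other 2 libraries of its treatment (vertical, log2 of the ratio of CPM) for the 163 members (coloured boxes) and the 1508 other abundant features (grey boxes). Boxes span the interquartile range with the median as a line, whiskers reach 1.5 times that range and points lie beyond. The members' box for ammonium replicate 3 is centred at -0.33 and is the lowest. The grey boxes, nearly all of features with a ratio under 2, are centred near 0.

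The shift of ammonium replicate 3 was not shared by all members. Beside the 82 members that were at least 1.25-fold lower in it, 71 stayed within 1.25-fold of the other ammonium pools and 10 were at least 1.25-fold higher. At least 2-fold lower were 21 members, with levels of 0.127 to 0.499 of the other ammonium pools and ratios of 2.47 to 241. Of the 36 members at least 1.25-fold lower in nitrate replicate 3, 17 were also at least 1.25-fold lower in ammonium replicate 3 and 19 were not. The largest drop after those already named was that of BRADI_4g45010v3, with 1404 CPM, 1332 CPM and 370.1 CPM in ammonium replicates 1 to 3, against 54.4, 49.7 and 46.6 CPM in nitrate replicates 1 to 3. In the opposite direction, BRADI_5g08520v3 had 261, 279 and 777 CPM under ammonium, against 96.7, 75.6 and 91.7 CPM under nitrate. BRADI_4g43620v3 had 166, 139.6 and 319 CPM under ammonium, against 29.98, 31.8 and 46.5 CPM under nitrate. These were the 2 members at least 2-fold higher in ammonium replicate 3, and without that library their ratios were 3.07 and 4.24. These 3 members were named after their values had been seen.

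The relation to the nitrate level was read in the 180 features chosen without ammonium replicate 3, since the rule on all 6 libraries leaves out features that combine a high nitrate level with a low ammonium replicate 3. The 102 of these features at least 1.25-fold lower in that library had a median nitrate level of 58.5 CPM, against 105.9 CPM for the other 78. Across the 180 features the level in ammonium replicate 3 relative to the other ammonium pools and the nitrate level had a Spearman rho of 0.40. All points share the same libraries, and the limit on the ratio still ties the nitrate level to ammonium replicates 1 and 2, so the rho is a description only.

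The rule was also applied to 5 libraries at a time, so that the sixth could be read as a library it had not used. Without ammonium replicate 1 it chose 147 features, of which 137 (93.2%) were 2-fold or more above the nitrate mean in the library left out. The numbers were 152 chosen and 147 (96.7%) for ammonium replicate 2, and 180 chosen and 142 (78.9%) for ammonium replicate 3. Every feature chosen in this way was above the nitrate mean in the ammonium library left out, the lowest at 1.11-fold in replicate 3. With a nitrate library left out, 164 or 165 features were chosen, and the mean of the ammonium libraries was 2-fold or more above the left-out library for 90.9% to 92.1% of them. Over all features with the same minimum levels, the chosen ones included, 9.18% to 10.7% reached 2-fold in these readings. The libraries of the other treatment served both the choice and the reading, so the readings are not independent of the choice and are a description only.

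In ammonium replicate 3 taken alone, 140 of the 163 members were 2-fold or more above the nitrate mean and 23 were between 1.39-fold and 2-fold. Of the 21 members that were at least 2-fold lower in this library than in the other ammonium pools, 17 were still 2-fold or more above the nitrate mean.

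Position in the genome was not used by the rule. Read from the digit after BRADI, 33 members lay on chromosome 1, 42 on chromosome 2, 37 on chromosome 3, 32 on chromosome 4 and 19 on chromosome 5. They were 6.26% of the abundant features on chromosome 1, 10.8% on chromosome 2, 9.09% on chromosome 3, 14.6% on chromosome 4 and 14.6% on chromosome 5. Chromosome 1 thus held 31.5% of all abundant features and 20.2% of the members. Differences between chromosomes were not tested.

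Some members lay side by side in the order of locus numbers. There were 10 pairs of members at most 5 places apart, with 20 members in them, and 5 of the pairs were direct neighbours. Of the 271 tested direct neighbours of members, 46 (17.0%) were called higher by edgeR with more than a 2-fold change, against 5.46% of the neighbours over all tested BRADI features and 5.91% of those of the other abundant features. Of the 46, 10 were members themselves, which the rule fixed. With neighbours that are members left out, 36 of 261 (13.8%) were called higher with more than a 2-fold change, against 4.80% over all tested BRADI features and 5.10% for the other abundant features. All members were themselves called higher, while nearly all of the other abundant features had a ratio under 2. Neighbours of other features called higher were not read separately, so the larger share is not shown to be particular to the members. A feature was counted once for each feature it adjoined, so it can be counted more than once. The sources used here do not give the counting options, and reads shared between overlapping or similar neighbours were not tested for.

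The neighbours in a pair were sometimes alike across pools and sometimes not. BRADI_4g06533v3 and BRADI_4g06536v3, 2 places apart, stood at 0.715 and 0.715 of the other ammonium pools in ammonium replicate 3, with ratios of 2.07 and 4.88. BRADI_2g49057v3 and BRADI_2g49067v3, direct neighbours, had ratios of 9.08 and 23.2 and stood at 0.476 and 0.691 in that library. BRADI_2g44140v3 and BRADI_2g44150v3 had ratios of 3.02 and 5.54, and BRADI_3g35390v3 and BRADI_3g35400v3 ratios of 5.10 and 2.79. The most abundant member, BRADI_4g43610v3, was a direct neighbour of BRADI_4g43620v3, which held far fewer reads and rose more in ammonium replicate 3 (2.08-fold, beside 1.16-fold, relative to the other ammonium pools).

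Another stretch of chromosome 3 held 3 members among 9 consecutive features. BRADI_3g31720v3 and BRADI_3g31727v3 were direct neighbours, and BRADI_3g31777v3 lay 6 places further on. BRADI_3g31727v3 had 722, 541 and 243 CPM in ammonium replicates 1 to 3, against 27.2, 27.5 and 34.4 CPM in nitrate replicates 1 to 3. Its neighbour BRADI_3g31720v3, given above, showed the same order of libraries. The level in ammonium replicate 3 relative to the other ammonium pools was 0.378 for BRADI_3g31720v3, 0.385 for BRADI_3g31727v3 and 0.157 for BRADI_3g31777v3. BRADI_3g31787v3, next to the last of them, had 205, 148 and 26.4 CPM under ammonium, against 0.275, 0.152 and 0.490 CPM under nitrate. It was kept out of the members by the nitrate minimum alone. Of the 5 features between the members, 3 were also called higher by edgeR with more than a 2-fold change, at lower levels. BRADI_3g31737v3 had means of 3.04 CPM under ammonium and 0.527 CPM under nitrate (ratio 5.77, adjusted p = 0.00078), BRADI_3g31750v3 44.8 and 10.6 CPM (ratio 4.21, adjusted p = 7.7e-05) and BRADI_3g31767v3 10.4 and 3.80 CPM (ratio 2.73, adjusted p = 0.00027). The other 2 were not called: BRADI_3g31760v3 had 28.0 CPM under ammonium and 25.1 CPM under nitrate, and BRADI_3g31763v3 0.978 and 0.724 CPM. In all, 7 of the 9 features were called higher with more than a 2-fold change. The stretch was chosen after its values had been seen, for its 3 members and with BRADI_3g31787v3 at its end. Much of this count was thus fixed by the choice. Over all tested BRADI features, 5.46% of direct neighbours were called higher with more than a 2-fold change. Unlike the members, BRADI_3g31737v3 and BRADI_3g31767v3 did not have their lowest ammonium level in replicate 3.

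**Figure D5:**
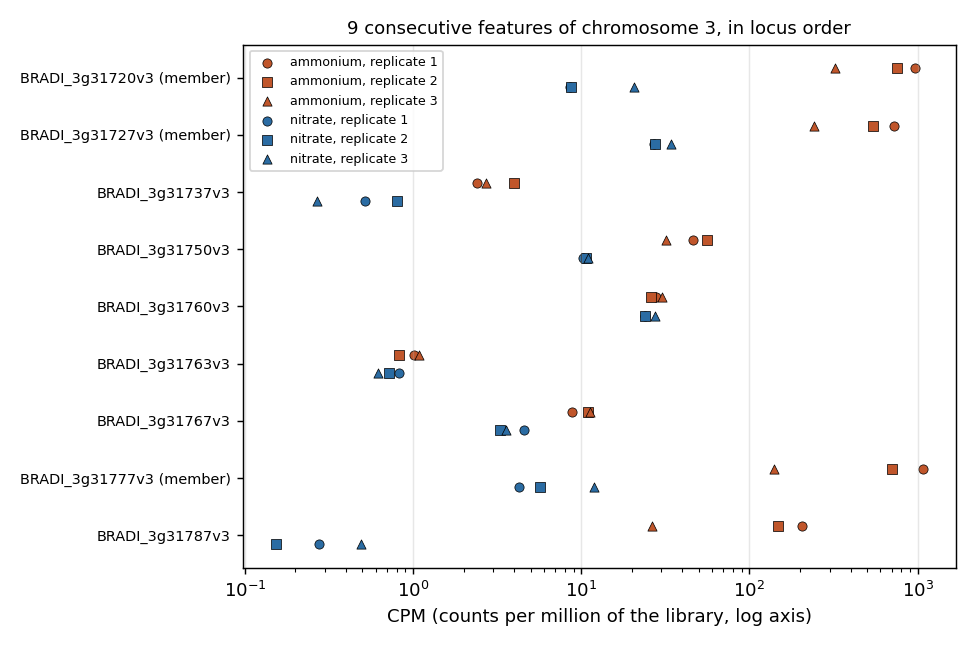
CPM in each library (horizontal, log axis) for 9 consecutive features of chromosome 3, listed in locus order from top to bottom. Each symbol is a library, with ammonium above nitrate in each row. The 3 members and BRADI_3g31787v3 have ammonium symbols far to the right of their nitrate symbols with replicate 3 (triangle) lowest under ammonium and highest under nitrate. BRADI_3g31737v3, BRADI_3g31750v3 and BRADI_3g31767v3 also lie apart by treatment, while BRADI_3g31760v3 and BRADI_3g31763v3 differ little.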

How the data were processed

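The authors deposited raw read counts per feature, with 1 column for each of the 6 libraries. HISAT2 and HTSeq were used per the submitters' processing notes. Neither tool's version or settings is known, and the genome build is not given in the sources used here. From the counts, CPM was computed on column totals and the membership rule was applied. The members and lists were chosen with earlier results of these data known. All features were tested with the quasi-likelihood test of edgeR 4.0.16 (R 4.3.3) after filterByExpr (minimum count 10, minimum total 15) and TMM scaling, with nitrogen source as the only term and Benjamini-Hochberg adjustment (threshold 0.05). The SE of a log2 fold change is its size divided by the square root of F. The test was checked on simulated data. Alternatives included DESeq2 1.42.0, other scalings and filters, other limits of the rule and leaving out each library.

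None of the 29627 identifiers matched the RefSeq table (assembly Brachypodium_distachyon_v3.0, 31335 genes), so the 12 lists written as patterns on product names were not applied. Named members follow a rule: the 12 highest ammonium means, the 8 highest ratios, those nearest to each threshold, the lowest nitrate means and the most and least variable under ammonium. The member whose groups overlapped, neighbouring members and members set apart in 1 replicate were added after their values were seen. Libraries of the same replicate number deviated together: over 23694 tested features the Pearson r of their deviations from the group mean was 0.133, 0.213 and 0.113 for numbers 1 to 3. Over the 163 members the same r was -0.16, 0.27 and -0.17. The reported test did not pair the libraries, and the numbers entered only 1 alternative, as a replicate block. No label says what a number marks, and whether the numbers pair the libraries was not tested. Separate tanks for the pools are not stated, so the pools may not be independent replicates of a treatment. The p-values set the difference between treatments against the spread between pools only, part of which may be technical. Replicate pairs differed by more than counting noise (chi-square per degree of freedom of 6.62 or more), and all 6 libraries were kept.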

Additional observations from a re-analysis of the deposited data

How the results depend on the processing

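The number of members (163) was 159 with TMM-scaled sizes, 160 with DESeq2 size factors, 174 with medians in place of means, 166 without the nitrate minimum and 147 to 180 when 1 library was left out, most without ammonium replicate 3. Requiring the lowest ammonium library to be 2-fold above the highest nitrate library left 115. A ratio of 3 gave 97, a minimum of 60 CPM 268 and a minimum of 240 CPM 93 members, by construction. Without the most abundant member the mean share of counts was 8.77% under ammonium and 2.16% under nitrate. Over all features, 9800 were called by edgeR, 9293 to 9861 under other scalings, filters and DESeq2, and 7103 to 9898 with 1 library left out. With the replicate block 10526 features were called, all 163 members among them, and the block changed no call of a member. The only member to lose its call under any alternative was BRADI_5g20557v3 (edgeR adjusted p = 0.017), at 0.052 and 0.053 without ammonium replicates 1 and 2 and at 0.066 and 0.063 without nitrate replicates 1 and 3. The 27 members named by the rule kept direction and call in all 12 alternatives. The members were chosen on this same contrast in these same libraries, so the calls they kept are a description and nothing is read from them. The count of members at least 1.25-fold lower in ammonium replicate 3 (82) was 82 under both other scalings. It was 102 for members chosen without that library. Leaving out the 4 highest members could not change it, since none of them was among the 82. The share of direct neighbours called higher with more than a 2-fold change (17.0%) was 13.8% with neighbours that are members left out. These last alternatives were chosen after seeing the data.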

Other observations

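Among the members, 19 were at their highest in replicate 2 of both treatments. BRADI_1g53770v3 had 111, 167 and 91.9 CPM in ammonium replicates 1 to 3, against 19.99, 67.2 and 40.2 CPM in nitrate replicates 1 to 3. BRADI_2g02310v3 had 128, 177 and 104 CPM under ammonium, against 33.2, 77.3 and 33.8 CPM under nitrate. These were the 2 members at least 2-fold higher in nitrate replicate 2 than in the other nitrate pools, and they were chosen after their values had been seen. Over the 163 members the Pearson r between deviations of same-numbered libraries was -0.16, 0.27 and -0.17 for numbers 1 to 3. Between libraries of unlike number it ran from -0.31 to 0.28. Deviations within a group add up to 0 and the members share their libraries, so these values describe the libraries only.

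The mirrored rule, with the nitrate mean at 120 CPM or more and at least 2-fold above the ammonium mean, itself 2 CPM or more, held for 177 features. In ammonium replicate 3 their median was 0.23 above the other ammonium pools on the log2 scale, where that of the members was -0.33. In nitrate replicate 3 the medians were -0.15 for these features and -0.13 for the members. Both sets were thus shifted towards the nitrate level in ammonium replicate 3, and both were lower in nitrate replicate 3.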
